A study of Mus musculus with 8 samples.

Results

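Bcl6, Prdm1, Sh2d1a, Slamf6 and Icos were followed across mouse spleen libraries of selected CD4+ cells without culture and of cells cultured under Th0, Th17 or Treg conditions. The genes were found by symbol in the deposited expression table, where all 5 are present among 34745 genes, and all 5 passed the filter on low counts that left 14690 genes for testing. RNA was sequenced from 8 libraries, 2 in each of 4 groups, and every group came from wild type C57BL/6 spleen. The naive libraries are CD4+ cells selected without culture, the Th0 libraries were stimulated for 3 days through CD3 and CD28, and the Th17 and Treg libraries were collected after 3 days under their differentiation conditions, whose cytokines are not given in the sources used here. The age and number of mice and any pooling are not stated either, so each p-value reflects how far these particular libraries spread, and part of that spread may be technical.

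BCL6 and BLIMP-1, the product of Prdm1, are zinc finger repressors that oppose each other: BCL6 drives the follicular helper (Tfh) programme of CD4+ T cells that help B cells in germinal centres, and BLIMP-1 blocks it and is abundant in effector and regulatory T cells. SLAMF6, also called Ly108, is a self-binding receptor of the SLAM family, and Sh2d1a encodes SAP, the small adaptor that binds the cytoplasmic tails of SLAM receptors and recruits the kinase FYN. ICOS is a costimulatory receptor related to CD28 that signals through phosphoinositide 3-kinase and is needed to make and keep Tfh cells. STAT5, activated by IL-2, is known to restrain Bcl6 and raise Prdm1, while STAT3 downstream of IL-6 and IL-21 supports Bcl6.

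The promoter windows of the opposed repressors are shown because letters of the core recognised by both STAT factors and BCL6 (TTCNNNGAA) stand in both Bcl6 windows. RefSeq windows on GRCm38.p6, from 250 bases before to 50 after a start, matched 3 of the 5 genes, with 2 starts for Bcl6. Capitals mark matches on either strand to TTCNNNGAA, to the AP-1 letters TGANTCA, to the TCF/LEF letters CTTTGA, to the FOXO letters TGTTTAC or to the BLIMP-1 letters AGNGAAAG, and no 2 matches overlap.
Bcl6, start inside the gene, chr16:23981234-23981533, minus strand: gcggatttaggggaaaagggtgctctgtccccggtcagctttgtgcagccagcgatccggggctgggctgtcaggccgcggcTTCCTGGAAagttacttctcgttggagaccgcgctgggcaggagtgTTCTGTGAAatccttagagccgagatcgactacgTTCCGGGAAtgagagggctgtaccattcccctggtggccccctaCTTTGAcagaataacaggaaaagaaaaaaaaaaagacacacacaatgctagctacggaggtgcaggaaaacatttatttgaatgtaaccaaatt
Bcl6, 5′ start, chr16:23988803-23989102, minus strand: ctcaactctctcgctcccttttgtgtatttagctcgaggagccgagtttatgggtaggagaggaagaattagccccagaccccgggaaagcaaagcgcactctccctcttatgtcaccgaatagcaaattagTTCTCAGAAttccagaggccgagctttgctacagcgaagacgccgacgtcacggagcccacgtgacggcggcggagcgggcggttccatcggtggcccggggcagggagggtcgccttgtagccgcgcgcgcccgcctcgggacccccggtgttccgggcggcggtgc
Prdm1, start inside the gene, chr10:44458699-44458998, minus strand: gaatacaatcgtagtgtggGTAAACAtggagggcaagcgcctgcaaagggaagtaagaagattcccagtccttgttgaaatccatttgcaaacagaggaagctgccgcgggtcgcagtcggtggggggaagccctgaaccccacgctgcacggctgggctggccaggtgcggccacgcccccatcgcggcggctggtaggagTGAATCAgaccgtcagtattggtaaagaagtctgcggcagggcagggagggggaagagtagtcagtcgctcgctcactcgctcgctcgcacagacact
The Bcl6 window inside the gene held 3 TTCNNNGAA matches, TTCCTGGAA, TTCTGTGAA and TTCCGGGAA, at positions -168, -122 and -88 from the start base, and CTTTGA at position -44. At least 1 TTCNNNGAA match was found in 8.30% of 32851 RefSeq promoter windows, and 3 or more in 0.0335% (11 windows). The window at the 5′ start of Bcl6 held 1 match, TTCTCAGAA, at position -118. The Prdm1 window held TGAATCA, found as TGANTCA in 7.81% of windows, and GTAAACA, the reverse complement of TGTTTAC, found in 3.65%. The Slamf6 window (chr1:171917212-171917511, plus strand) held none of the 5 sets of letters, which were present in 16% of windows for CTTTGA and 8.63% for AGNGAAAG. A match is a description of letters, and binding was not measured in these libraries.

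Libraries held between 12504463 and 22443368 counts, and the unit used below is CPM, the count divided by the TMM-scaled library size. The group labels were checked on genes of each state: Il17f, a Th17 cytokine gene, reached 136 and 89.5 CPM in the Th17 libraries and at most 23.0 CPM elsewhere, and Foxp3 reached 317 and 270 CPM in the Treg libraries. Foxp3 also stood at 95.01 and 101 CPM in the naive libraries, against 5.94 and 4.70 CPM in Th0, and Il17a was as high in the Treg libraries (57.4 and 34.3 CPM) as in the Th17 libraries (60.9 and 33.7 CPM). The 12 pan T cell genes summed to 3535 to 3794 CPM in naive, 4797 to 5242 CPM in Th0, 3890 to 3899 CPM in Th17 and 4997 to 5135 CPM in Treg libraries. Markers of other cells moved with the naive group: 17 myeloid and dendritic cell genes summed to 4332 to 4632 CPM in naive libraries and to 95.6 to 227 CPM in cultured ones, with 2 or 3 of the 17 at 0 in each cultured group. Summed CPM of 12 B cell genes was 1514 to 1877 in naive, 237 to 249 in Th0, 629 to 671 in Th17 and 186 to 192 in Treg libraries. The 8 germinal centre B and plasma cell genes summed to 252 to 286 CPM in naive, 55.9 to 58.1 CPM in Th0, 107 to 108 CPM in Th17 and 21.4 to 26.9 CPM in Treg libraries, with 1 gene at 0 in each cultured group. Cd8a and Cd8b1 together summed to 82.0 to 91.6 CPM in naive, 176 CPM in Th0, 122 CPM in Th17 and 426 to 469 CPM in Treg libraries. The 7 NK cell genes summed to 92.8 to 105 CPM in naive, 30.6 to 36.9 CPM in Th0, 22.9 to 27.0 CPM in Th17 and 62.6 to 80.5 CPM in Treg libraries. B cells and myeloid cells can express Bcl6, Prdm1 and SLAM receptors. The part of such cells in the differences below was not tested, nor was that of cells with the CD8 and NK markers above. In bulk RNA, fewer cells of a type and less RNA per cell cannot be told apart.

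Bcl6, the Tfh-defining repressor (chromosome 16, 23965052 to 23988852, minus strand, GRCm38), was lowest under Treg conditions. Its level was 72.4 and 64.8 CPM in the naive libraries, 94.9 and 94.2 CPM in Th0, 50.9 and 79.4 CPM in Th17, and 19.3 and 23.8 CPM in Treg. Both Treg libraries lay below every other library, the Th0 pair lay above every other library, and the Th17 pair spread across the naive values. Bcl6 fell by 2.14 on the log2 scale in Treg against Th0 (SE 0.20), which is 4.39-fold lower (edgeR quasi-likelihood test, Benjamini-Hochberg adjusted p = 7.57e-05). It fell by 1.67 in Treg against naive (SE 0.20, adjusted p = 8.74e-05) and stood 3.02-fold higher in Th17 than in Treg (adjusted p = 0.000565).

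The order of Bcl6 among the other groups was less certain. The Th0 level was 138% of the naive level (95% interval 103 to 185%, adjusted p = 0.0512), which missed the threshold of 0.05, and the call passed without either Th17 library (adjusted p = 0.00729 without Th17 replicate 2 and 0.00767 without Th17 replicate 3). Th17 against Th0 gave 68.8% (interval 51.2 to 92.3%, adjusted p = 0.0588). That difference depended on the spread within the Th17 pair, since it was -0.88 on the log2 scale without Th17 replicate 3 (adjusted p = 0.00409) and -0.25 without Th17 replicate 2 (adjusted p = 0.26). Th17 against naive gave 94.8% (interval 70.7 to 127%, adjusted p = 0.737), and -0.42 on the log2 scale without Th17 replicate 3 (adjusted p = 0.0374).

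Prdm1, which encodes BLIMP-1 (chromosome 10, 44437177 to 44528501, minus strand), was lowest under Th17 conditions. Its level was 24.1 and 22.0 CPM in naive, 16.9 and 15.8 CPM in Th0, 8.34 and 4.85 CPM in Th17, and 20.0 and 20.7 CPM in Treg libraries. Both Th17 libraries lay below every other library, and the remaining pairs were close together without overlapping. Prdm1 fell by 1.29 on the log2 scale in Th17 against Th0 (SE 0.23, adjusted p = 0.00328), fell by 1.79 against naive (SE 0.22, adjusted p = 0.000103), and had a log2 difference of -1.61 against Treg (SE 0.23, adjusted p = 0.00101). Th0 stood at 71.0% of naive (interval 51.2 to 98.5%, adjusted p = 0.0608), and this difference passed without Th17 replicate 2 (adjusted p = 0.00926) and without Th17 replicate 3 (adjusted p = 0.00907). The Treg level was 125% of Th0 (interval 89.3 to 174%, adjusted p = 0.251) and 88.4% of naive (interval 64.0 to 122%, adjusted p = 0.493).

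The ratio of Bcl6 to Prdm1 counts within a library does not depend on scaling between libraries. The naive libraries gave 3.00 and 2.95, the Th0 libraries 5.61 and 5.97, the Th17 libraries 6.10 and 16.4, and the Treg libraries 0.964 and 1.15. Bcl6 counts exceeded Prdm1 counts at least 2.95-fold in the naive, Th0 and Th17 libraries, and the genes had nearly equal counts in the Treg libraries. Per kilobase of merged exons, the ratio ran from 4.67 to 13.6 in Th0 and Th17 libraries and was 0.803 and 0.956 in Treg libraries. With the lengths behind the deposited FPKM values, the Treg ratios were 1.02 and 1.22. Th17 replicate 3, with 64 Prdm1 counts, set the upper end of the range.

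**Figure D1:**
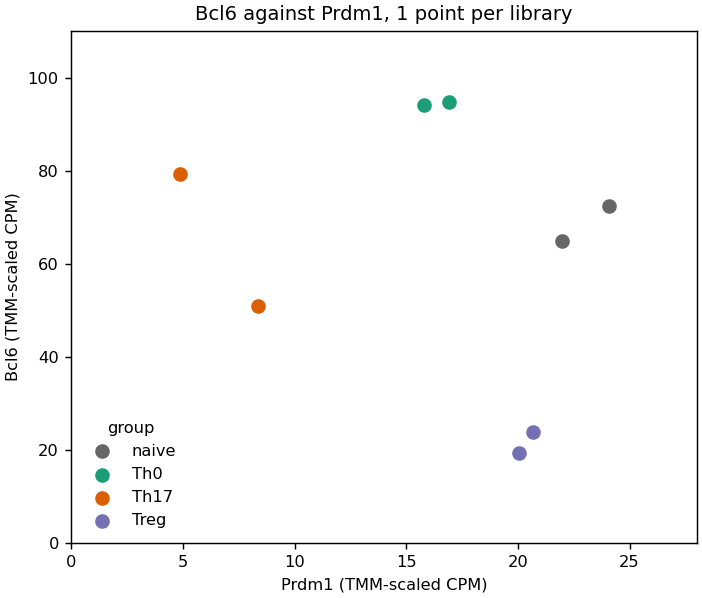
Bcl6 level against Prdm1 level, both in TMM-scaled CPM on linear axes, with 1 point per library coloured by group. The Treg pair lies low on the Bcl6 axis near 20 CPM of Prdm1, the Th17 pair lies low on the Prdm1 axis, and the Th0 pair has the highest Bcl6.

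Slamf6 had the largest fitted fold difference between groups among the 5 genes, 9.61-fold from naive to Th17. This receptor gene (chromosome 1, 171917515 to 171953170, plus strand) stood at 188.2 and 220.8 CPM in naive libraries, 28.6 and 27.1 CPM in Th0, 25.4 and 16.9 CPM in Th17, and 96.7 and 69.9 CPM in Treg. The naive pair was highest, the Treg pair lay between, and the Th0 and Th17 pairs were lowest. Slamf6 fell by 2.88 on the log2 scale in Th0 against naive (SE 0.21), which is 7.34-fold lower (adjusted p = 2.51e-06), and fell by 3.26 in Th17 against naive (SE 0.21, adjusted p = 1.50e-06). In Treg against naive it fell by 1.29 (SE 0.19, adjusted p = 0.000393), and the Treg level was 2.99-fold that of Th0 (adjusted p = 0.000344). Th17 stood 3.92-fold lower than Treg (adjusted p = 0.000228) and at 76.4% of Th0 (interval 55.1 to 106%, adjusted p = 0.194). An antisense gene, Gm37065, overlaps the start of Slamf6 and was given 12 to 61 counts per library. Whether counting used strand is not given in the sources used here, so reads of the overlap cannot be assigned with certainty.

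Sh2d1a, the SAP gene (chromosome X, 42502453 to 42529330, plus strand), did not follow Slamf6. Its level was 21.5 and 25.2 CPM in naive, 43.0 and 44.2 CPM in Th0, 35.5 and 36.1 CPM in Th17, and 40.1 and 57.4 CPM in Treg libraries. All 6 cultured libraries lay above both naive libraries, and the Th0 pair fell inside the span of the Treg pair. Sh2d1a rose against naive in Th0 by 0.90 on the log2 scale (SE 0.17, adjusted p = 0.00112), in Th17 by 0.61 (SE 0.17, adjusted p = 0.0104) and in Treg by 1.06 (SE 0.17, adjusted p = 0.000567). The Th17 call was lost without naive replicate 1 (log2 difference 0.50, adjusted p = 0.0719). Scaled to 12 pan T cell genes, which moves the median of all genes in Th0 against naive by -0.50, the Th0 difference was 0.40 (adjusted p = 0.0523). Both Th17 libraries lay below all 4 Th0 and Treg libraries, but no adjusted p between cultured groups passed the threshold: Th17 stood at 82.1% of Th0 (interval 63.2 to 107%, adjusted p = 0.230), Treg at 112% of Th0 (interval 86.1 to 145%, adjusted p = 0.461), and Th17 at 73.5% of Treg (interval 56.6 to 95.5%, adjusted p = 0.0751). Without Treg replicate 2, the last of these was -0.68 on the log2 scale and passed (adjusted p = 0.0221).

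Icos (chromosome 1, 60977927 to 61000320, plus strand) was highest under Th17 conditions. Its level was 126.5 and 123.3 CPM in naive libraries, 271.6 and 287.0 CPM in Th0, 556.0 and 459.2 CPM in Th17, and 299.0 and 287.7 CPM in Treg. No cultured library reached down to the naive pair, and both Th17 libraries exceeded all others. Icos rose in Th0 against naive by 1.16 on the log2 scale (SE 0.10, adjusted p = 8.16e-06), in Th17 against naive by 2.02 (SE 0.10, adjusted p = 3.40e-07) and in Treg against naive by 1.23 (SE 0.10, adjusted p = 7.77e-06). It rose further in Th17 against Th0 by 0.86 (SE 0.10, adjusted p = 0.000365) and was 1.73-fold higher in Th17 than in Treg (adjusted p = 0.000599). Treg and Th0 were close, at 105% (interval 89.9 to 123%, adjusted p = 0.591). Gm37039, a gene on the same strand within Icos, was given 129 and 147 counts in naive libraries and 7 and 9 in Th0. It had 33 and 22 counts in Th17 libraries and 33 and 15 in Treg. Icos itself had 2626 and 2843 counts in naive libraries. How reads of this overlap were divided is not given in the sources used here.

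**Figure D2:**
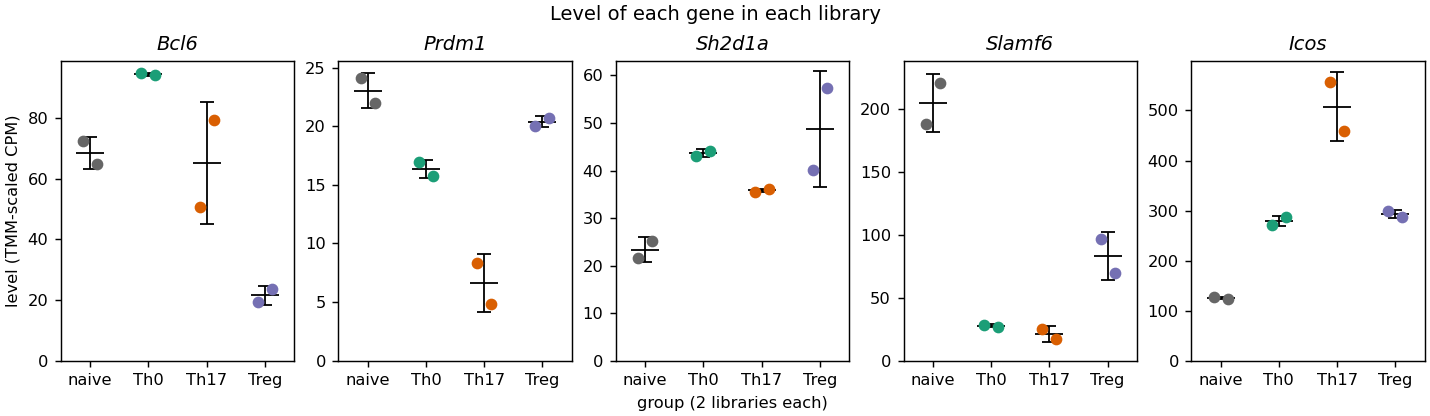
Level of each of the 5 genes in TMM-scaled CPM (vertical axes start at 0 and differ between panels) for the 4 groups. Points are libraries, dashes are group means and bars are 1 SD of 2 libraries. Bcl6 is lowest in Treg, Prdm1 lowest in Th17, Slamf6 highest in naive and Icos highest in Th17.

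Levels of different genes were compared per kilobase of merged exons. The lengths behind the deposited FPKM are longer, 7916 against 5579 bases for Prdm1 and 12109 against 10832 bases for Slamf6. Orders of genes with close levels, such as Prdm1 and Slamf6 in Th0, can change with the length used. In naive libraries the mean level was 36.4 CPM per kb for Icos, 18.9 for Slamf6, 10.2 for Bcl6, 4.25 for Sh2d1a and 4.13 for Prdm1. Icos stayed highest in every group and reached 148 CPM per kb in Th17. In Th0, Bcl6 came next at 14.1 CPM per kb, followed by Sh2d1a at 7.92, Prdm1 at 2.93 and Slamf6 at 2.57. In Th17, the order was Bcl6 at 9.72, Sh2d1a at 6.50, Slamf6 at 1.95 and Prdm1 at 1.18 CPM per kb. In Treg, Sh2d1a at 8.86 and Slamf6 at 7.69 CPM per kb had library ranges that overlapped. By merged exons, Prdm1 at 3.65 CPM per kb lay above Bcl6 at 3.22 CPM per kb in both Treg libraries. The deposited FPKM put Bcl6 above Prdm1 in both, with ratios of 1.02 and 1.22.

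Counts of the 5 genes are read against the share of all 14690 tested genes called in the same direction. In Th0 against naive, 2 rose and 1 fell, beside a background of 31.3% higher and 36.4% lower. Th17 against Th0 had 1 that rose and 1 that fell (background 16.1% and 12.6%), and in Treg against Th0, 1 rose and 1 fell (background 25.7% and 20.6%). In Th17 against Treg, 2 were higher and 2 lower (background 14.8% and 14.5%). Against naive, 2 rose and 2 fell both in Th17 (background 30.4% and 32.8%) and in Treg (background 27.6% and 29.0%). Scaling to the 12 pan T cell genes instead adds about -0.50 to every log2 change in Th0 against naive, 0.41 in Th17 against Th0, 0.38 in Th17 against Treg and -0.49 in Treg against naive, so smaller changes there can turn sign. The genes called then split into 2528 higher and 7789 lower in Th0 against naive, beside 4600 and 5342 with TMM. They split into 6094 and 389 in Th17 against Th0 (TMM 2362 and 1849), 5370 and 701 in Th17 against Treg (TMM 2169 and 2125) and 1956 and 7320 in Treg against naive (TMM 4054 and 4258). Treg against Th0 shifted by 0.02 and Th17 against naive by -0.09. With 5 genes, and between 12.6% and 36.4% of the table called in a given direction, these counts carry little on their own. The 6 comparisons share libraries, so their values are given side by side and not correlated.

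**Figure D3:**
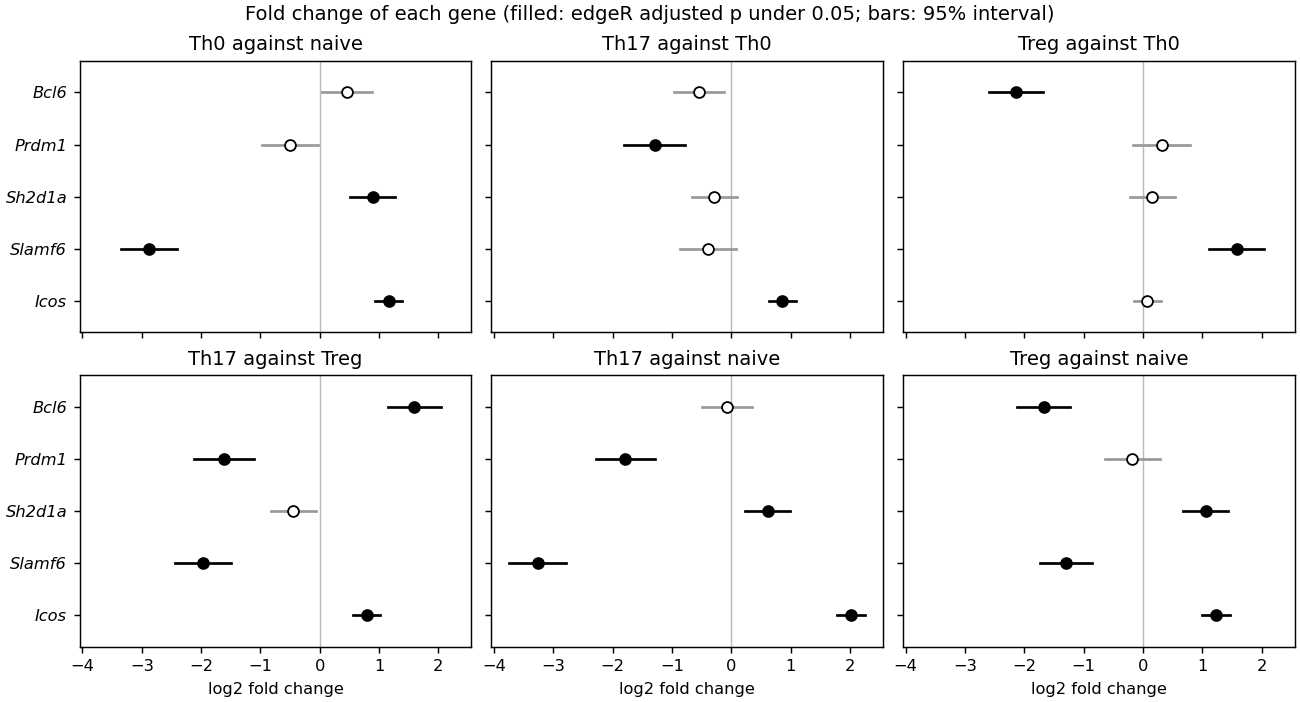
Fold change on the log2 scale of each gene in the 6 comparisons, first group minus second. Bars are 95% intervals and filled points have an edgeR adjusted p under 0.05. Bcl6 and Prdm1 point in opposite directions in Th17 against Treg, at 1.60 and -1.61.

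Transcription factors linked to Tfh cells, whether they promote or restrain them, included genes that rose and genes that fell. In this and the following lists, counts are to be read against the shares of all genes given above, and a gene said to rise or fall had an edgeR adjusted p under 0.05 over all genes, changes are log2 fold changes, and their median SE was 0.12 (95% of them at or under 0.27). Of 17 tested, 4 rose and 7 fell in Th0 against naive (median log2 -0.40, beside -0.08 over the whole table), 8 rose and 3 fell in Th17 against Th0 (median 0.50, beside 0.05), and 6 rose and 6 fell in Treg against Th0 (median 0.08, beside 0.09). These are 23.5% and 41.2% in Th0 against naive (all genes 31.3% and 36.4%), 47.1% and 17.6% in Th17 against Th0 (16.1% and 12.6%) and 35.3% and 35.3% in Treg against Th0 (25.7% and 20.6%). With pan T cell scaling, the counts were 2 and 13 in Th0 against naive, 11 and 1 in Th17 against Th0, 11 and 1 in Th17 against Treg and 2 and 11 in Treg against naive. In Th17 against Treg 6 were higher and 3 lower, and against naive 8 rose and 5 fell in Th17 and 5 rose and 8 fell in Treg. Maf, a driver of Il21, stood at 124 and 145 CPM in Th17 against 49.6 and 35.1 CPM in Th0 and rose by 1.66 on the log2 scale. Batf and Irf4, AP-1 and IRF partners needed for Tfh and Th17 cells, rose in Th17 against Th0 by 1.01 and 1.70. Tox2, an HMG-box factor of Tfh cells, rose there by 1.61 and was 1.44 and 1.30 CPM in Treg, where it fell by 1.96 against Th0.

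Pou2af1, a coactivator best known in B cells, followed the same order, at 155 and 138 CPM in Th17, 76.3 and 72.1 CPM in Th0 and 20.6 and 21.2 CPM in Treg. Tcf7, whose product TCF-1 promotes Bcl6, fell by 1.06 in Treg against Th0, while the log2 difference of Lef1, its relative, was 0.03 there and was not called. Stat4, which drives Th1 differentiation, and Stat3 rose in Th0 against naive by 1.44 and 1.18, and Egr3, an early T cell receptor response factor, fell by 2.31. Tox, a relative of Tox2, fell by 1.09 in Th17 against Th0. Bach2, a repressor that restrains Prdm1, was not called in any of the 6 comparisons, and its replicates spread from 82.8 to 161 CPM in Th0.

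Among the 18 genes for Tfh surface proteins and cytokines, Th0 against naive had 7 that rose and 8 that fell (median log2 -0.08), 8 rose and 3 fell in Th17 against Th0 (median 0.09), and 5 rose and 8 fell in Treg against Th0 (median -0.17). In that order, the list shares are 38.9% and 44.4%, 44.4% and 16.7%, and 27.8% and 44.4%. All genes had 31.3% and 36.4%, 16.1% and 12.6%, and 25.7% and 20.6%. Between Th17 and Treg, 8 were higher and 3 lower in Th17, against naive 10 rose and 5 fell in Th17, and 7 rose and 6 fell in Treg. Pan T cell scaling gave 6 and 10 in Th0 against naive, 12 and 1 in Th17 against Th0, 11 and 1 in Th17 against Treg and 6 and 8 in Treg against naive. Cxcr5, the receptor that takes Tfh cells to follicles, stood at 60.3 and 51.1 CPM in naive, 41.9 and 46.0 CPM in Th0, 86.5 and 100 CPM in Th17 and 33.9 and 25.1 CPM in Treg. It rose in Th17 against Th0 by 1.09 (adjusted p = 0.00121) and fell by 0.57 in Treg against Th0 (adjusted p = 0.0174). Cxcr5 and Pou2af1 are also B cell genes, and the summed B cell markers above were higher in Th17 than in Th0 and Treg libraries. That sum was highest in naive libraries, at 1514 to 1877 CPM beside 629 to 671 CPM in Th17. Both genes were lower in naive than in Th17 libraries, with Pou2af1 at 127 and 108 CPM in naive. Among the 12 B cell markers, 10 were called higher in Th17 than in Th0. Fcer2a was lower in Th17 (log2 -1.56) and Ms4a1 was not called (-0.15). The part of B cells in the Th17 levels of Cxcr5 and Pou2af1 was not tested.

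Il21, the Tfh cytokine that Th17 cells also make, was 73.1 and 52.6 CPM in Th17, 12.2 and 13.9 CPM in Th0 and 4.85 and 5.06 CPM in Treg. It rose in Th17 against Th0 by 2.27 and fell by 1.39 in Treg against Th0. Pdcd1, encoding the inhibitory receptor PD-1 that is high on Tfh cells, had another order and was highest in Treg at 46.4 and 37.5 CPM, against 7.13 and 6.01 CPM in Th0, a rise of 2.67. Btla, another inhibitory receptor of Tfh cells, rose by 0.86 in Th17 and fell by 0.79 in Treg, both against Th0. Il1r1, an IL-1 receptor, rose in Th17 against Th0 by 4.38 and in Treg by 1.91. Il6ra, which brings the IL-6 signal, and Cxcr4, a homing receptor, changed by -2.27 and -2.37 in Th0 against naive and rose in Th17 against Th0 by 1.58 and 1.33. Lag3, Tnfrsf18 and Tnfrsf4, activation receptors, rose in Th0 against naive by 3.29, 2.86 and 2.61. Nt5e, the CD73 ectoenzyme, rose in Treg against Th0 by 1.32.

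BCL6 is known to repress the next 15: in Th0 against naive 4 rose and 8 fell (median log2 -0.28), 7 rose and 3 fell in Th17 against Th0 (median 0.27), and 7 rose and 1 fell in Treg against Th0 (median 0.33). The list shares are 26.7% and 53.3%, 46.7% and 20%, and 46.7% and 6.67%. Beside them, all genes had 31.3% and 36.4%, 16.1% and 12.6%, and 25.7% and 20.6%. In Th17 against Treg 3 were higher and 5 lower, a count that went to 2 and 2 without Treg replicate 2. Against naive 4 rose and 6 fell in Th17, and 5 rose and 6 fell in Treg. Under pan T cell scaling these were 3 and 10 for Th0 against naive, 10 and 3 for Th17 against Th0, 6 and 2 for Th17 against Treg and 3 and 7 for Treg against naive. Klf2, a quiescence and homing factor, was 477 and 472 CPM in naive, 24.9 and 20.9 CPM in Th0, 67.9 and 53.9 CPM in Th17 and 140 and 117 CPM in Treg. It fell by 4.37 in Th0 against naive and rose from Th0 in Th17 by 1.41 and in Treg by 2.49. Gpr183, the receptor EBI2 that guides cells to the follicle border, rose from Th0 by 1.57 in Th17 and 1.27 in Treg. Ccr6, a chemokine receptor of Th17 cells, rose by 4.95 and 3.61. Tbx21, the Th1 factor T-bet, fell by 1.26 from Th0 in Th17 and fell by 1.03 in Treg, and Gata3, the Th2 factor, fell by 1.19 in Th17 and rose by 0.47 in Treg. S1pr1, the egress receptor, and Id2, an inhibitor of E proteins, changed by -1.67 and -2.67 in Th0 against naive.

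**Figure D4:**
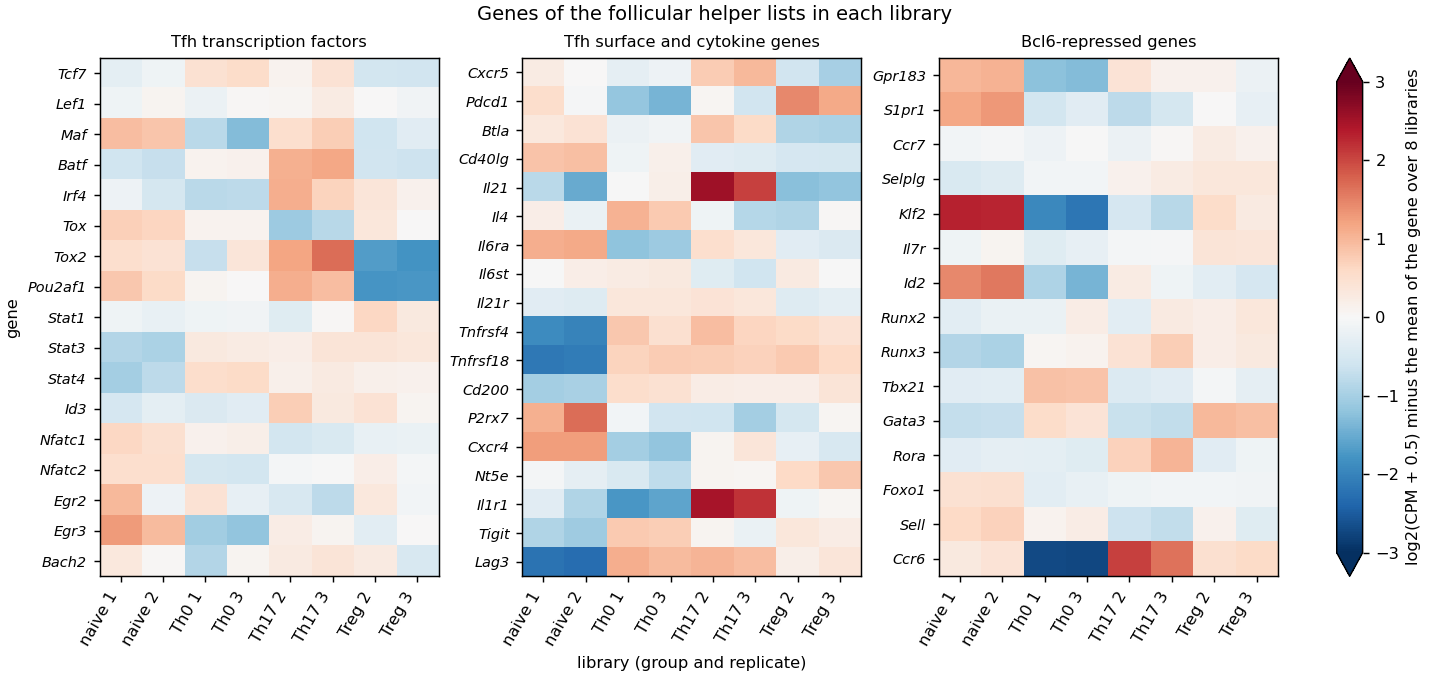
Each tested gene of 3 lists in each library, as log2(CPM + 0.5) minus the mean of that gene over 8 libraries (red above, blue below, colours end at 3 in either direction). Tox2 and Pou2af1 are lowest in Treg, Il21 and Il1r1 are highest in Th17, and Klf2 is highest in naive.

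The next list holds genes upstream and downstream of BLIMP-1. Of 16 tested, 8 rose and 5 fell in Th0 against naive (median log2 0.67), 6 rose and 2 fell in Th17 against Th0 (median 0.22), and 7 rose and 7 fell in Treg against Th0 (median 0.24). These are 50% and 31.2% in Th0 against naive, beside 31.3% and 36.4% of all genes. Th17 against Th0 had 37.5% and 12.5% (all genes 16.1% and 12.6%), and Treg against Th0 43.8% and 43.8% (25.7% and 20.6%). The Th17 count went to 3 and 2 without Th0 replicate 3. Th17 had 5 higher and 5 lower than Treg, and against naive 9 rose and 4 fell in Th17 and 9 rose and 5 fell in Treg. The pan T cell scaling gave 7 and 7 (Th0 against naive), 11 and 1 (Th17 against Th0), 10 and 3 (Th17 against Treg) and 7 and 5 (Treg against naive). Il2ra, the IL-2 receptor alpha chain, stood at 83.0 and 84.1 CPM in naive, 324 and 307 CPM in Th0, 830 and 632 CPM in Th17 and 1236 and 1157 CPM in Treg. It rose in Treg against Th0 by 1.92 and in Th17 against Th0 by 1.21. Il2rb, the beta chain, rose in Treg against Th0 by 1.09. Stat5a, an IL-2 signal transducer, rose in Th0 against naive by 2.01 and fell by 0.91 in Treg against Th0. Gzmb, which encodes granzyme B, was 560 and 461 CPM in Treg, 345 and 326 CPM in Th0 and 48.5 and 42.6 CPM in Th17, and fell by 2.88 in Th17 against Th0. Il10, a cytokine gene that BLIMP-1 supports, was highest in Th17 at 10.7 and 15.7 CPM, where it rose against Th0 by 1.65.

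Of 16 cofactors of BCL6 and BLIMP-1, 9 rose and 4 fell in Th0 against naive (median log2 0.31), 2 rose and 2 fell in Th17 against Th0 (median 0.02), and 4 rose and 8 fell in Treg against Th0 (median -0.20). With all 8 libraries, the list shares are 56.2% and 25%, 12.5% and 12.5%, and 25% and 50%. The shares of all genes were 31.3% and 36.4%, 16.1% and 12.6%, and 25.7% and 20.6%. Th17 had 6 higher and 3 lower than Treg, with 3 and 2 without Th17 replicate 3 and 2 and 1 without Treg replicate 2. Against naive 8 rose and 3 fell in Th17 and 5 rose and 1 fell in Treg, and leaving out 1 library gave 5 and 2 in Th17 (naive replicate 2) and 2 and 1 in Treg (naive replicate 2 or Treg replicate 3). Scaled to pan T cell genes, Th0 against naive had 5 and 6, Th17 against Th0 8 higher, Th17 against Treg 10 higher, and Treg against naive 1 and 6. Bcor, a BCL6 corepressor, fell by 1.14 in Th0 against naive and rose from Th0 in Th17 by 0.79 and in Treg by 0.97. Hdac7, a class IIa histone deacetylase, rose in Th0 against naive by 1.92 and fell by 0.75 in Treg against Th0. Hdac5 changed by -0.47 in Th17 and -0.97 in Treg against Th0, and Prmt5, an arginine methyltransferase, rose there by 0.31 and 0.69.

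Slamf6 lies in a cluster of SLAM receptor genes on chromosome 1, with Cd84 and Slamf1 as its nearest receptor neighbours in the list. Cd84, whose product joins T cells to B cells, and Ly9 changed by -1.03 and -0.96 in Th0 against naive. Slamf1, the SLAM receptor CD150, had the opposite order, at 32.3 and 32.7 CPM in naive, 80.8 and 80.5 CPM in Th0, 96.5 and 79.6 CPM in Th17 and 34.8 and 31.1 CPM in Treg. It rose in Th0 against naive by 1.31 and fell by 1.29 in Treg against Th0, where Slamf6 rose by 1.58. Cd48, the ligand of CD244, was 141 and 138 CPM in naive, 42.7 and 34.0 CPM in Th0, 46.8 and 40.7 CPM in Th17 and 112 and 89.8 CPM in Treg, and rose in Treg against Th0 by 1.40.

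Several relatives were near 0 in culture. Slamf8, a myeloid receptor, had 23.8 and 22.2 CPM in naive and no count in either Th0 library, which makes Th0 at least 107-fold lower at a floor of 3 counts per library. Sh2d1b1, the SAP relative EAT-2 of innate cells, had 28.9 and 21.8 CPM in naive and no count in Th0, at least 118-fold lower at the same floor. Cd244, a receptor of NK and myeloid cells, had 42.9 and 43.8 CPM in naive and 0.594 and 0.693 CPM in Th0. These genes moved with the summed myeloid markers given above.

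Of 15 tested genes of the SLAM and SAP list, 2 rose and 12 fell in Th0 against naive (median log2 -0.96, all genes -0.08). That is 13.3% and 80%, beside 31.3% and 36.4% of all genes. In Th17 against naive 1 rose and 13 fell, and in Treg against naive 13 fell. The 13 that fell are 86.7%, beside 32.8% of all genes in Th17 and 29.0% in Treg. In Treg against Th0, 5 rose and 4 fell (33.3% and 26.7%, all genes 25.7% and 20.6%). Against Th0, Th17 had 4 that rose and 4 that fell, which dropped to between 3 and 4 genes in all without any 1 of the naive libraries, the Th0 libraries or Th17 replicate 2. In Th17 against Treg 3 were higher and 6 lower, with 4 called in all without Th17 replicate 3 and 5 without either Treg library. Scaling to pan T cell genes gave 1 and 12 in Th0 against naive, 7 and 1 in Th17 against Th0, 5 and 1 in Th17 against Treg and 15 that fell in Treg against naive. Prkcq, the kinase PKC-theta downstream of SAP and FYN, rose in Th0 against naive by 0.47 and fell by 0.86 from Th0 in Th17 and fell by 0.76 in Treg. Fyn fell by 0.42 in Th0 against naive. Ptpn6, the SHP-1 phosphatase that SLAM receptors bind without SAP, rose in Treg against Th0 by 0.85.

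Icos lies beside Cd28 and Ctla4 on chromosome 1, and the neighbours had 3 different orders. Cd28, the primary costimulatory receptor, was highest in Th0 at 655 and 705 CPM, against 309 and 340 CPM in naive, 356 and 369 CPM in Th17 and 356 and 368 CPM in Treg. It rose in Th0 against naive by 1.07 and fell by 0.91 from Th0 in both Th17 and Treg. Ctla4, the inhibitory receptor of regulatory T cells, was highest in Treg at 783 and 820 CPM, where it rose against Th0 by 0.92. Icosl, the ICOS ligand of B cells and myeloid cells, was 92.0 and 94.6 CPM in naive and fell by 3.43 in Th0.

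**Figure D5:**
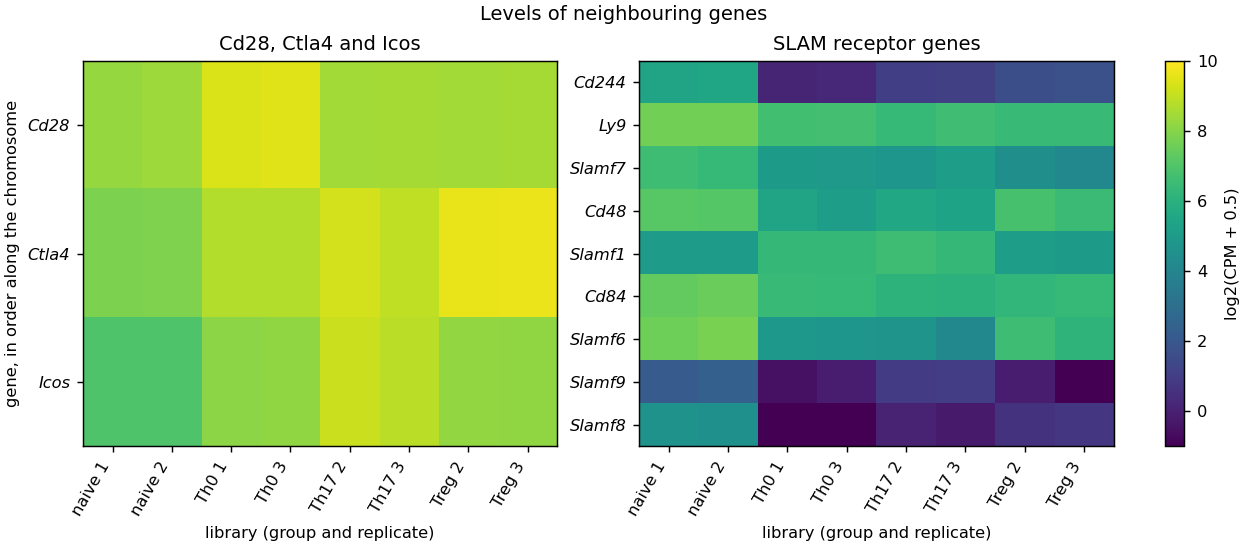
Level of each gene in each library as log2(CPM + 0.5), for Cd28, Ctla4 and Icos on the left and the SLAM receptor genes on the right, in chromosome order. Cd28 is highest in Th0, Ctla4 in Treg and Icos in Th17, and Slamf6 and Cd48 share a high naive level and a Treg level above Th0.

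In the list of 16 for ICOS and CD28 signalling, Th0 against naive had 4 that rose and 8 that fell (median log2 -0.18), 7 rose and 3 fell in Th17 against Th0 (median 0.24), and 5 rose and 6 fell in Treg against Th0 (median 0.11). As shares these are 25% and 50%, 43.8% and 18.8%, and 31.2% and 37.5%. For all genes the shares were 31.3% and 36.4%, 16.1% and 12.6%, and 25.7% and 20.6%. In Th17 against Treg 3 were higher and 4 lower, with 2 and 1 without Th17 replicate 3 or Treg replicate 2. Against naive 5 rose and 6 fell in Th17 and 3 rose and 7 fell in Treg. For pan T cell scaling the counts were 2 and 9 in Th0 against naive, 9 and 1 in Th17 against Th0, 8 higher in Th17 against Treg and 2 and 12 in Treg against naive. Rc3h1, the RNA-binding protein Roquin-1 that represses Icos mRNA, was 187 and 180 CPM in naive, 147 and 160 CPM in Th0, 127 and 137 CPM in Th17 and 104 and 101 CPM in Treg, and fell by 0.58 in Treg against Th0. Its paralogue Rc3h2 fell by 0.51 from Th0 in Th17 and fell by 0.61 in Treg. Zc3h12a, the RNase Regnase-1 that also acts on Icos mRNA, rose in Th17 against Th0 by 1.52 and fell by 1.03 in Th0 against naive. Cd86, a CD28 ligand, rose in Th17 against Th0 by 2.66 and stood at 183 and 175 CPM there. Akt1, a kinase downstream of phosphoinositide 3-kinase, fell by 1.02 in Th0 against naive and rose in Treg against Th0 by 1.11.

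Genes whose pattern over the 8 libraries was nearest to each of the 5 were found among 9064 genes by the root mean square difference of centred log2 CPM. For Bcl6 these were Sptb (difference 0.22), Per1 (0.23) and Tcp11l2 (0.24), against a median of 0.91 over all genes compared. For Prdm1 they were Ms4a4b, Il10rb and Inpp4b (0.22 to 0.26, median 0.81). Sh2d1a was nearest to Cmc2, Ndufv2 and Saal1 (0.13 to 0.14, median 0.51), and Slamf6 to Ifi47, Trat1 and Samd9l (0.23 to 0.32, median 1.37). Icos was nearest to Ero1l, Atat1 and Traf4 (0.12 to 0.15, median 0.76).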

How the data were processed

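The authors deposited gene counts and FPKM values for 8 libraries in 1 table. Bowtie2, RSEM and the build GRCm38.p6 (mm10) are named per the submitters' processing notes, and the counts are whole numbers. The deposited FPKM values equalled count over a fixed length and depth for 100.0% of values above 0 (relative tolerance 0.001) and were used only for the length check and a ratio. Counts were tested with edgeR 4.0.16 (R 4.3.3): filtering by group, TMM scaling, a quasi-likelihood fit over all 4 groups (14690 genes, 4 residual degrees of freedom), 6 contrasts, and Benjamini-Hochberg adjustment over all genes in each contrast, with 0.05 as threshold. A standard error is the log2 change over the square root of F, and intervals are 95%. The fit was tested on simulated data. Total counts were 12504463 to 22443368, so a count of 0 allows up to 3 counts, 0.130 to 0.231 CPM on the TMM scale; such floors cover counting error only. Gene lengths are GENCODE M21 merged exons. From each of 7 pathway lists, up to 4 called genes per contrast with the largest change and a mean of at least 5 CPM were open to naming, beside a fixed set, and Fyn, and contrasts of listed genes beyond those the rule picks, were chosen after their values were seen. The genes and lists were chosen with earlier results of these data known. Alternatives were RLE scaling, DESeq2 1.42.0, limma-voom (limma 3.58.1), other filters, the 2 compared groups only, a replicate block, each library left out and, chosen after seeing the data, scaling to 12 pan T cell genes.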

Additional observations from a re-analysis of the deposited data

How the results depend on the processing

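Across 16 alternatives, no called change of the 5 genes reversed: of 480 values, 454 kept their side of the threshold, 24 passed it only in the alternative and 2 lost it. The count of the 5 genes called in Th0 against naive went from 3 to 5 with no filter on low counts, with only the 2 groups compared, with limma-voom, and without either Th17 library. In Th17 against Th0 it went from 2 to 4 with no filter. Leaving out 1 library gave 3 to 5 genes in Th0 against naive, 2 to 3 in Th17 against Th0, 4 to 5 in Th17 against Treg, 3 to 5 in Th17 against naive, 2 to 2 in Treg against Th0 and 4 to 4 in Treg against naive. For all genes, the calls ranged from 8585 to 10375, 2630 to 4190, 1878 to 4338, 7673 to 9499, 4637 to 7081 and 6597 to 8774 in the same order of comparisons; the low ends came without Th17 replicate 2 (2630) in Th17 against Th0, where leaving out Th0 replicate 3 gave 2798, and without Treg replicate 2 (1878) in Th17 against Treg, where leaving out Th17 replicate 3 gave 2444. The SLAM and SAP list had 3 calls in Th17 against Th0 with only the 2 groups compared and 4 with the replicate block, against 8. Scaling to 12 pan T cell genes called 6483 genes in Th17 against Th0, moved the median of all genes there by 0.41, and brought Prdm1 past the threshold in Th0 against naive (-0.999, adjusted p = 0.00138) and Treg against naive (-0.67, adjusted p = 0.0163). Bcl6 in Th0 against naive was -0.04 under that scaling. DESeq2 called Bcl6 in Th0 against naive (adjusted p = 0.0312) and Th17 against Th0 (adjusted p = 0.0155). Same-numbered libraries deviated together with correlations of only -0.022 to 0.124, so the numbers were not taken as pairs; with a replicate block 3 of the 5 genes were called in Th17 against Th0, Slamf6 being added (-0.57, adjusted p = 0.0153), and 9200 genes were called in Th0 against naive. The cause of these shifts was not tested. Depth left 64 to 507 counts of Prdm1 per library.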
